A study of Homo sapiens with 6 samples.

Results

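FSTL3 and the other genes of the activin-follistatin axis were examined in PolyA-Seq data of HCCLM3-SR, a derivative of the human hepatocellular carcinoma (HCC) line HCCLM3 selected for resistance to the kinase inhibitor sorafenib. The 9 genes were taken by name from the 38637 genes of the deposited table. They comprise the follistatin family (FSTL3, FST, FSTL1), the activin and inhibin beta subunits INHBA, INHBB and INHBE, and the activin receptors ACVR1B, ACVR2A and ACVR2B. The family was selected on the rise of FSTL3 mRNA after knockdown, which was already known from these libraries. The values of its members in the comparison of knockdown with control are therefore a description and carry no p-value. Counts of members that pass a threshold, given below, describe the fits and are no test of the axis. All 9 genes were found, and 5 of them averaged 1 TPM or more over the libraries (transcripts per 1000000, a unit corrected for gene length) and entered the test across genes. FST, FSTL1, INHBA and ACVR2A were below that mean and are described by their values alone.

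The study asked which mRNAs change when the circular RNA cDCBLD2 is lost. In 3 libraries the cells were transfected with siRNA against cDCBLD2 (knockdown), in 3 libraries with control siRNA (control), each for 3 days, and all 6 libraries came from cells kept in 5 µM sorafenib. No library without sorafenib and no sensitive parental line was part of the comparison, and all libraries came from a single cell line. The labels do not say whether replicates were separate cultures, so the spread between them may be technical.

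Activins are secreted dimers of beta subunits. An activin binds a type II receptor (ACVR2A or ACVR2B), which recruits and phosphorylates a type I receptor such as ACVR1B (ALK4), and the type I receptor phosphorylates SMAD2 and SMAD3, which enter the nucleus with SMAD4. Follistatin (FST) and follistatin-like 3 (FSTL3) wrap around the ligand and keep it from its receptors. INHBC and INHBE are made mainly by hepatocytes, and activin A restrains the growth of hepatocytes.

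The recovered depth was between 17492673 and 23064302 reads per library, reconstructed from the ratios of the TPM values. In either group the library numbered 1 had the lowest recovered depth (17512981 reads in knockdown and 17492673 in control). Whether the libraries numbered 1 differed from those numbered 2 and 3 over all genes was not tested. A fit with the replicate number as a block is given beside the fit without it. Whether libraries 2 and 3 of the 2 groups pair as numbered was not tested. The epithelial keratins KRT8 and KRT18 were abundant, between 2999 and 4413 TPM for KRT8. Of the other epithelial genes examined, CDH1 lay between 37.7 and 62.0 TPM, while EPCAM was only between 0.0686 and 0.323 TPM. The liver transcription factor HNF4A lay between 22.9 and 31.3 TPM. Of the other 7 hepatocyte genes examined (ALB, AFP, APOA1, APOB, TTR, SERPINA1 and FGB) none exceeded 4.26 TPM in any library, so transcripts that define mature hepatocytes were nearly absent. In bulk RNA, fewer cells of a kind and less RNA per cell cannot be told apart.

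FSTL3, a secreted antagonist of activins and myostatin, was the most abundant gene of the axis and, of those tested, the one that differed most between the groups. Its locus is on the plus strand of chromosome 19, positions 676365 to 683399 of GRCh38 (GENCODE release 29), and its longest coding transcript has 5 exons and 2542 bases. The stretch of 250 bases before its RefSeq start (GRCh38.p14, plus strand, chr19:676142-676391) is shown because FSTL3 is the gene of the axis whose transcript level differed most. The RefSeq and GENCODE starts differ. The stretch ends at 676391, beyond the GENCODE start at 676365, so its last bases lie within the GENCODE locus. Capitals mark matches on either strand to the GC box GGGCGG and to the TATA box TATAAA.

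FSTL3 upstream: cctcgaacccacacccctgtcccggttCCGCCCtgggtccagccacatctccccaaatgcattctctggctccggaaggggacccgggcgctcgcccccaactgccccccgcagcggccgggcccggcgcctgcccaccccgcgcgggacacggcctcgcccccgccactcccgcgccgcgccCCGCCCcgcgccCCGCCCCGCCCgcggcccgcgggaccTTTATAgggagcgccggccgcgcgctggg

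This stretch is 80.0% G and C, above 96.7% of the 35116 RefSeq promoters, whose median is 58.0%. It held 4 matches to the GC box, the last pair of which share a base. It also held 1 match to the TATA box, on the minus strand, 29 to 24 bases before the RefSeq start. A GC box was found in 42.6% and a TATA box in 10.7% of all promoters of this length. The SMAD element CAGACA (13.6% of promoters), the AP-1 element TGANTCA (6.6%) and the cAMP response element TGACGTCA (1.6%) had no match in these bases, searched on both strands.

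FSTL3 mRNA measured 200.1, 164 and 212 TPM in the knockdown libraries 1, 2 and 3, against 59.9, 52.7 and 62.7 TPM in the control libraries 1, 2 and 3. Each knockdown library was thus more than 100 TPM above each control library, and the groups did not overlap. These values rest on 3472, 3868 and 4638 reads after knockdown and on 1011, 1058 and 1255 reads in control. FSTL3 averaged 192 ± 24.9 TPM (SD, n = 3) in knockdown and 58.4 ± 5.15 TPM (SD, n = 3) in control libraries, a ratio of 3.29.

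On the log2(TPM + 1) scale the FSTL3 difference was 1.70 (standard error 0.12), the 19th highest of the 13980 genes tested. Pair by pair it was 1.72, 1.62 and 1.74, so the pairs lay closer together than the libraries of either group. The replicate block left the difference as it was and lowered its standard error to 0.046. FSTL3 has a GC-rich transcript (64.4%). Once the trend of the values with GC content was removed per library, the FSTL3 difference was 1.55 (standard error 0.14), and with limma-voom on the recovered reads it was 1.81 (standard error 0.12). By level, FSTL3 ranked 1308th of the genes tested.

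**Figure D1:**
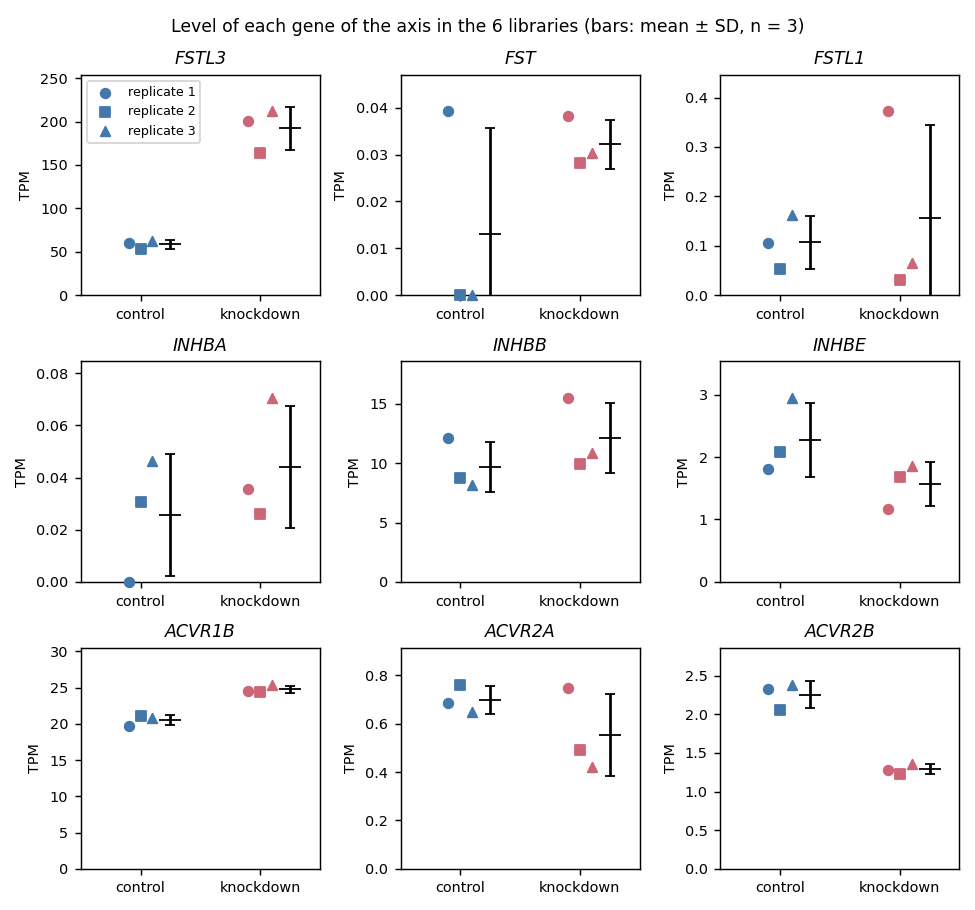
TPM (vertical axes, each from 0) of the 9 genes in the 3 control (blue) and 3 knockdown (red) libraries, with the replicate number as marker shape and the mean ± SD (n = 3) in black beside the points (bars that would pass below 0 end at the axis). The groups are apart for FSTL3 and ACVR1B, with knockdown above, and for ACVR2B, with knockdown below, and overlap for the other 6 genes.

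FST, the founding follistatin and a strong binder of activins, was all but undetected. It had 1 read in each knockdown library and in control replicate 1, and was listed at 0 in control replicates 2 and 3. A floor of 3 counts corresponds to between 0.0843 and 0.118 TPM of FST in these libraries, so each value was under the floor and no fold change is given. FSTL3 therefore made up between 99.93% and 100% of the summed FSTL3 and FST mRNA in every library.

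FSTL1, a distant relative with a follistatin-like domain that is made mainly by mesenchymal cells, measured 0.372, 0.0304 and 0.0655 TPM in the knockdown libraries 1, 2 and 3, against 0.106, 0.0536 and 0.161 TPM in the control libraries. The high value of knockdown replicate 1 was 18 of the 41 reads found in all libraries, and the groups overlapped. The same library stood out in mesenchymal transcripts. COL1A2, which encodes a collagen I chain, was at 2.67 TPM there and listed at 0 in the other 5 libraries. SPARC, a matrix protein with a follistatin-like domain, was at 2.42 TPM there and between 0.430 and 0.904 TPM in the others. COL1A1 was at 11.2, 3.61 and 3.64 TPM in the knockdown libraries 1, 2 and 3, against 3.346, 1.13 and 2.145 TPM in the control libraries. COL3A1 was at 3.36, 1.78 and 1.96 TPM after knockdown, against 0.783, 0.476 and 0.546 TPM in control. For both of these collagens every knockdown library lay above every control library, with replicate 1 the highest. The 6 fibroblast and stellate cell genes summed to between 32.3 and 76.9 TPM after knockdown and between 30.1 and 43.9 TPM in control, with the proteoglycan LUM the largest part. The part of such transcripts in the FSTL1 values was not tested.

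Of the ligand subunits, INHBB, which forms activin B, carried most of the mRNA. INHBB (chromosome 2, from 120346143 to 120351808, plus strand) measured 15.5, 9.96 and 10.9 TPM in the knockdown libraries 1, 2 and 3, against 12.1, 8.78 and 8.14 TPM in the control libraries 1, 2 and 3. Replicate 1 was the highest library of each group and the groups overlapped, although each knockdown library lay above the control library of its own number. INHBB averaged 12.1 ± 2.95 TPM (SD, n = 3) in knockdown and 9.68 ± 2.13 TPM (SD, n = 3) in control libraries. The log2 difference of INHBB was 0.29, with a standard error of 0.21 without the replicate block and 0.080 with it.

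INHBE, the hepatocyte subunit of activin E, was the next ligand by level. INHBE (chromosome 12, from 57452323 to 57459280, plus strand) measured 1.17, 1.68 and 1.86 TPM in the knockdown libraries 1, 2 and 3, against 1.81, 2.08 and 2.94 TPM in the control libraries. Here too the groups overlapped while each pair had the same order, with knockdown below control. The log2 difference of INHBE was -0.34 (standard error 0.19, and 0.13 with the block), from 99 reads over the knockdown libraries (95% exact Poisson interval 80.5 to 120.5, counting error only) and 129 reads over the control libraries (interval 107.7 to 153.3).

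INHBA, the subunit of activin A, measured 0.0356, 0.0262 and 0.0704 TPM after knockdown and 0, 0.0307 and 0.0462 TPM in control, from between 0 and 5 reads per library. A floor of 3 counts corresponds to between 0.0393 and 0.0548 TPM of INHBA. Only knockdown replicate 3 was above it, so no fold change is given.

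The study concerns miR-345-5p, a microRNA that cDCBLD2 is proposed to bind, and its seed, bases 2 to 8, is therefore shown in capitals with the matches to it found in the longest coding transcripts of the 9 genes (GENCODE release 29). The mature sequence is the RefSeq one (GRCh38.p14, chr14:100307876-100307897, plus strand), and in the transcripts the capitals mark the 7 bases complementary to the seed.

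hsa-miR-345-5p: gCUGACUCcuaguccagggcuc
INHBA coding sequence: cacgtttgccGAGTCAGgaacagccag
INHBA 3′ UTR: caccatcaatGAGTCAGgggttgggat
INHBE 3′ UTR: ccagaaacagGAGTCAGgaaaatgagg

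INHBA and INHBE were thus the genes of the axis with a match, and FSTL3, FST, FSTL1, INHBB and the 3 receptors had none in the coding sequence or 3′ UTR. Of 11536 coding genes that averaged 1 TPM or more, 22.3% had a match in either part, 12.7% in the coding sequence and 11.1% in the 3′ UTR. A match is a run of letters and does not show binding.

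Among the receptors, the type I receptor ACVR1B was the most abundant and its groups were apart. ACVR1B (chromosome 12, from 51951667 to 51997078, plus strand) measured 24.5, 24.5 and 25.4 TPM in the knockdown libraries 1, 2 and 3, against 19.7, 21.05 and 20.8 TPM in the control libraries 1, 2 and 3. All knockdown libraries lay above all control libraries, by a small step against the level. ACVR1B averaged 24.8 ± 0.512 TPM (SD, n = 3) in knockdown and 20.5 ± 0.712 TPM (SD, n = 3) in control libraries, and the log2 difference was 0.26 (standard error 0.073, and 0.058 with the block).

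The type II receptor ACVR2B had the opposite order. ACVR2B (chromosome 3, from 38453851 to 38493142, plus strand), which binds activins, myostatin and GDF11, measured 1.28, 1.23 and 1.36 TPM in the knockdown libraries 1, 2 and 3, against 2.33, 2.06 and 2.38 TPM in the control libraries 1, 2 and 3. The groups did not overlap, with every knockdown library below every control library. ACVR2B averaged 1.29 ± 0.0666 TPM (SD, n = 3) in knockdown and 2.25 ± 0.173 TPM (SD, n = 3) in control libraries, a ratio of 0.573, from 587 and 928 reads. The log2 difference of ACVR2B was -0.50 on log2(TPM + 1) (standard error 0.12), -0.70 by limma-voom on the recovered reads and -0.31 after removal of the GC trend. ACVR2B-AS1 overlaps the gene on the opposite strand, with exons apart from those of ACVR2B, and was between 0.516 and 1.498 TPM.

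ACVR2A, the other type II receptor, measured 0.747, 0.491 and 0.423 TPM in the knockdown libraries 1, 2 and 3, against 0.686, 0.760 and 0.647 TPM in the control libraries. Knockdown replicate 1 lay within the control range and the other knockdown libraries below it, so the groups overlapped. Between 20 and 33 reads per library support these values. Exons of ORC4, on the opposite strand, overlap those of ACVR2A, and ORC4 was at 3.90 to 6.20 TPM. Whether the counting used strand is not given in the sources used here, and without strand the reads of ACVR2A and ORC4 in the shared exons cannot be told apart.

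**Figure D2:**
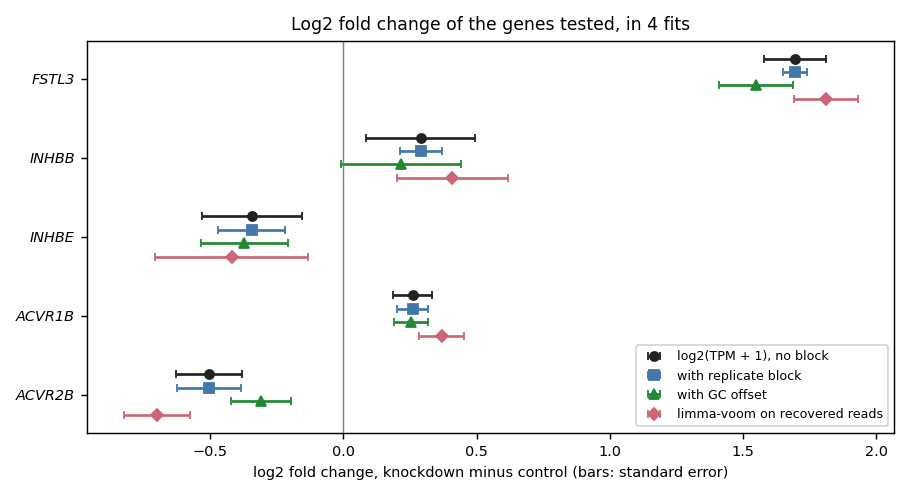
Log2 fold change, knockdown minus control (horizontal axis, bars are standard errors), of the 5 genes tested, in 4 fits: log2(TPM + 1) without a block, with the replicate block, after removal of the GC trend, and limma-voom on recovered reads. The direction was the same in all 4 fits for each gene, with FSTL3 between 1.55 and 1.81 and ACVR2B between -0.70 and -0.31.

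The axis was chosen by the known difference of FSTL3 between the knockdown and control libraries tested here. A call of FSTL3 follows from that choice and is no independent result. The shares of all genes describe each fit and are no background for FSTL3. In the fit without the block, 1 of the 5 genes tested, FSTL3, passed an adjusted p of 0.05 in the higher direction. None passed in the lower direction. Of all genes, 0.25% passed as higher and 0.629% as lower. At an unadjusted p under 0.05, 2 of the 5 were higher and 1 was lower. The share of all genes at an unadjusted p under 0.05 was not counted, here or below. Counts at that threshold therefore have no background and are no result about these genes. Under the replicate block FSTL3, INHBB and ACVR1B passed as higher (9.94% of all genes) and ACVR2B as lower (25.0% of all genes). With the block and the GC trend removed, FSTL3 and ACVR1B passed as higher (11.6% of all genes) and none as lower (13.4% of all genes), with 2 lower at an unadjusted p under 0.05. With limma-voom and the block, which tested 6 of the 9 genes, FSTL3, INHBB and ACVR1B again passed as higher (17.5% of all genes) and ACVR2B as lower (20.5% of all genes), while limma-voom without the block called FSTL3 higher (1.29% of all genes) and ACVR2B lower (1.72% of all genes). A log2 difference over 1 in size was required as a further threshold in the fit without the block, which left FSTL3 (0.0501% of all genes higher) and 0 genes of the axis lower (0.0787% of all genes). Groups without overlap, knockdown above, were found for 2 of the 5 genes and 9.58% of all genes tested, and knockdown below for 1 of the 5 and 22.3% of all. Because the axis was chosen on this contrast, these counts are a description and do not show that the axis differs more than other genes. The call of FSTL3 without the block was lost (0 genes higher) when any 1 of knockdown replicates 2 and 3 or control replicates 1, 2 and 3 was left out. Each time 2 genes of the axis were higher at an unadjusted p under 0.05. The share of all genes called in those fits was not counted, so the loss cannot be set against other genes. The FSTL3 call was kept without knockdown replicate 1, where ACVR2B was called lower as well (4.64% of all genes were called higher and 19.8% lower in that fit). Without replicate 1 of both groups, FSTL3 and ACVR1B passed as higher (9.68% of all genes) and ACVR2B as lower (25.3% of all genes). The FSTL3 difference itself stayed between 1.62 and 1.804 in these fits.

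The order of the levels was nearly the same in both groups. In control it ran from FSTL3 (58.4 TPM) over ACVR1B (20.5 TPM), INHBB (9.68 TPM), INHBE (2.28 TPM), ACVR2B (2.25 TPM), ACVR2A (0.698 TPM), FSTL1 (0.107 TPM) and INHBA (0.0256 TPM) to FST (0.0131 TPM). Neighbours in this order did not overlap over the 3 control libraries, except INHBE with ACVR2B and INHBA with FST. The lowest steps rest on few reads. FSTL1 in control replicate 2 was at its floor of 3 counts (0.0536 TPM), and INHBA and FST were at or under theirs in each control library. After knockdown the order of means was the same, and FSTL1 overlapped INHBA as well.

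The sum of the antagonists FSTL3 and FST over the sum of INHBA, INHBB and INHBE, in TPM, was 12, 14.1 and 16.6 in the knockdown libraries 1, 2 and 3, against 4.31, 4.84 and 5.63 in the control libraries 1, 2 and 3. Antagonist mRNA thus exceeded the summed mRNA of these subunits in every library, and each knockdown ratio was above each control ratio. The sum leaves out GDF11, another ligand of ACVR2A and ACVR2B, which averaged 16.9 TPM in knockdown and 17.2 TPM in control libraries. With GDF11 counted, the ratios would be lower. They are ratios of mRNA and say nothing of secreted protein. The means were 14.2 ± 2.28 (SD, n = 3) and 4.93 ± 0.666 (SD, n = 3), a ratio of 2.88. The ligand sum itself was 13.7 ± 2.63 TPM (SD, n = 3) in knockdown and 11.98 ± 1.69 TPM (SD, n = 3) in control libraries, so the numerator, FSTL3, carried the difference in the ratio. INHBB made up 92.8%, 85.4% and 84.9% of the ligand sum in the knockdown replicates and 87.0%, 80.7% and 73.1% in the control replicates, which is a higher share after knockdown in each pair.

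**Figure D3:**
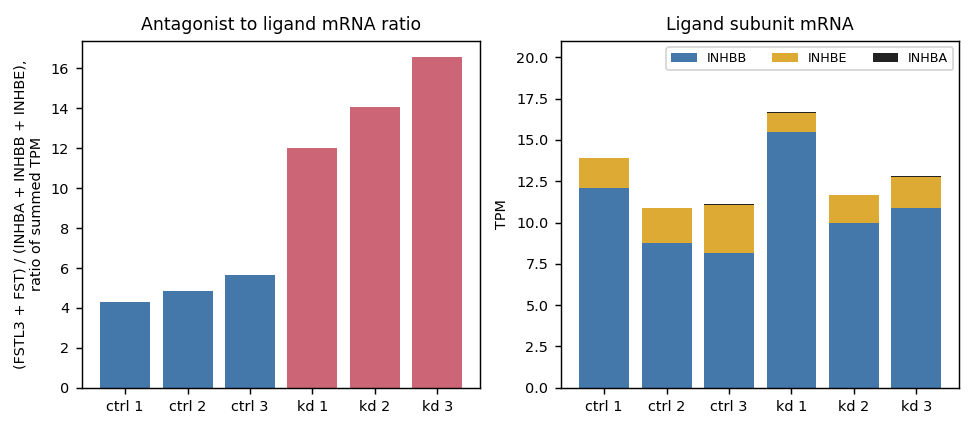
Left, the ratio of summed TPM of FSTL3 and FST to summed TPM of INHBA, INHBB and INHBE in each control (ctrl, blue) and knockdown (kd, red) library. Right, the TPM of the ligand subunits stacked per library, in which INHBB is the largest part throughout and INHBA is barely visible. The ratio was between 4.31 and 5.63 in control and between 12 and 16.6 after knockdown.

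The balance of receptors also differed between the groups. ACVR1B mRNA exceeded the sum of ACVR2A and ACVR2B 12.1, 14.2 and 14.2 times in knockdown replicates 1, 2 and 3 and 6.55, 7.47 and 6.89 times in control replicates 1, 2 and 3. The type II sum was 1.85 ± 0.162 TPM (SD, n = 3) in knockdown and 2.95 ± 0.117 TPM (SD, n = 3) in control libraries. These sums are ratios of mRNA and say nothing of receptor protein at the cell surface.

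The rest of the pathway was examined in 66 other genes in 6 lists, of which 44 were tested. The lists were chosen with earlier results of these data known. The calls and adjusted p-values of their genes, here and below, are therefore a description. Without the block, limma called 1 of the 44 genes higher (0.25% of all genes) and 0 lower (0.629% of all genes), with 10 and 4 at an unadjusted p under 0.05. The share of all genes at that unadjusted threshold was not counted. Under the block, 12 were higher (9.94% of all genes) and 5 were lower (25.0% of all genes), and with the GC trend removed as well 13 were higher (11.6%) and 1 was lower (13.4%). The median log2 difference of the 44 was 0.03, against -0.08 over all genes tested. The count without the block fell to 0 when any library other than knockdown replicate 1 was left out, where the share of all genes was not counted. It rose to 7 higher and 3 lower without knockdown replicate 1, where 4.64% of all genes were higher and 19.8% lower. Scaling to the upper quartile gave 2 higher (0.422% of all genes) and 0 lower (0.443% of all genes), with 11 and 2 at an unadjusted p under 0.05 by limma.

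Of the 10 other ligands and inhibin subunits, GDF11 alone was tested. GDF11, a ligand of ACVR2A and ACVR2B close to myostatin, was at 16.9 ± 0.366 TPM (SD, n = 3) in knockdown and 17.2 ± 0.557 TPM (SD, n = 3) in control libraries, with overlapping groups. The log2 difference was -0.02 (standard error 0.077, adjusted p = 0.895, and 0.829 with the block), and 0.11 once the GC trend was removed (adjusted p = 0.193 with the block). INHA, INHBC, NODAL, GDF1, GDF3, GDF9, MSTN, LEFTY1 and LEFTY2 were below the mean of 1 TPM. By level, GDF11 lay above INHBB.

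Of 5 other receptors and co-receptors tested, none passed without the block. With it, BAMBI passed as higher (9.94% of all genes) and TGFBR3 and BMPR2 as lower (25.0% of all genes). TGFBR3, or betaglycan, a co-receptor through which inhibin antagonises activin, was at 4.41, 4.31 and 4.91 TPM after knockdown, in the order of the replicate numbers, against 7.02, 7.45 and 8.18 TPM in control, with no overlap. Its log2 difference was -0.62 (standard error 0.11, adjusted p = 0.0549, 0.00763 with the block), and -0.36 with the GC trend removed (adjusted p = 0.0227 with the block). BMPR2, a type II receptor for BMPs, had a log2 difference of -0.54 (adjusted p = 0.0779, 0.0115 with the block), which was -0.11 once the GC trend was removed (adjusted p = 0.347 with the block). BAMBI, a kinase-less pseudoreceptor that dampens TGF-beta and activin signalling, was at 121, 141 and 136 TPM after knockdown and at 83.8, 107 and 114 TPM in control (log2 difference 0.39, adjusted p = 0.129, 0.00949 with the block). TGFBR1, the TGF-beta type I receptor, was at -0.36 (adjusted p = 0.374, 0.0580 with the block), and removal of the GC trend turned its direction, to 0.05 (adjusted p = 0.666 with the block). ACVR1, the type I receptor ALK2, went from 0.03 to 0.27 with the GC trend removed and then passed with the block (adjusted p = 0.0311). It is named because it passed.

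All 14 SMADs and partners were tested, and none passed without the block. With it, PMEPA1, FOXH1, SMAD3 and SMAD7 were higher (9.94% of all genes) and SMAD4 and SMURF2 lower (25.0% of all genes). SMAD3, SMAD4 and SMAD7 are named because they passed. The largest difference was that of PMEPA1, a SMAD2/3 target that binds SMADs and limits their activation. It measured 17.7, 11.5 and 13.5 TPM after knockdown and 7.18, 6.05 and 6.68 TPM in control, so the groups were well apart. The log2 difference was 0.98 (standard error 0.16, adjusted p = 0.0539, 0.00481 with the block), and 0.96 with the GC trend removed (adjusted p = 0.00513 with the block). FOXH1, a DNA-binding partner of SMAD2 and SMAD4, was at 0.32 (adjusted p = 0.149, 0.0262 with the block), the ubiquitin ligase SMURF2 at -0.29 (adjusted p = 0.516, 0.0391 with the block) and SMAD2 at -0.34 (adjusted p = 0.171, 0.0678 with the block). With the GC trend removed and the block, only PMEPA1, SMAD3 (0.28, adjusted p = 0.0106) and TGIF1 passed among these 14 genes, each as higher (11.6% of all genes). TGIF1, a SMAD corepressor named because it passed, was at -0.05 before and 0.31 after (adjusted p = 0.0147). The calls of FOXH1 (0.18, adjusted p = 0.0780), SMAD7 (0.13, adjusted p = 0.0626) and SMURF2 (-0.05, adjusted p = 0.573) were lost. The direction turned for SMAD4, from -0.27 to 0.09 (adjusted p = 0.358), and for SMAD2, to 0.04 (adjusted p = 0.776).

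Of 7 other genes with follistatin-type domains that were tested, none passed without the block. With it, WFIKKN1 and AGRN were higher (9.94% of all genes) and SPARCL1 lower (25.0% of all genes). WFIKKN1, which binds myostatin and GDF11, was at 2.41, 2.85 and 4.51 TPM after knockdown and at 1.05, 1.51 and 1.77 TPM in control, from between 14 and 78 reads per library. Its log2 difference was 0.78 (standard error 0.22, adjusted p = 0.102, 0.0112 with the block). AGRN, the heparan sulfate proteoglycan agrin, was at 0.41 (adjusted p = 0.186, 0.00669 with the block), and at 0.25 with the GC trend removed (adjusted p = 0.0123 with the block). SPOCK3, a matrix proteoglycan named because it passed with the GC trend removed and the block (0.55, adjusted p = 0.00621), was at 0.12 before (adjusted p = 0.741). The matrix protein gene SPARCL1 was at -0.44 (adjusted p = 0.156, 0.0282 with the block), and at -0.11 with the GC trend removed (adjusted p = 0.349 with the block). IGFBP7 was at -0.40 (adjusted p = 0.254, 0.141 with the block).

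Activin precursors are cut by furin-type convertases. Of 5 convertases and related proteases tested, none passed without the block. With it, FURIN and BMP1 were higher (9.94% of all genes) and none was lower (25.0% of all genes). FURIN was at 149, 157 and 162 TPM after knockdown and at 128, 129 and 126 TPM in control, without overlap, with a log2 difference of 0.29 (standard error 0.060, adjusted p = 0.0663, 0.00994 with the block). BMP1, a metalloprotease that activates myostatin and GDF11 by cutting their propeptides, was at 0.35 (adjusted p = 0.108, 0.00874 with the block). With the GC trend removed, FURIN was at 0.16 (adjusted p = 0.0341 with the block) and BMP1 at 0.21 (adjusted p = 0.0259 with the block). PCSK7 was at 0.12 (adjusted p = 0.506) and PCSK6 at -0.07 (adjusted p = 0.702), and at 0.02 and -0.13 with the GC trend removed (adjusted p = 0.792 and 0.224 with the block).

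Of 12 genes tested that respond to SMAD2/3 signalling, limma called CDKN1A higher without the block (0.25% of all genes). With it, CDKN1A, TGFBI and JUNB passed as higher (9.94% of all genes). JUNB is named because it passed. None passed as lower in either fit (0.629% of all genes without the block and 25.0% with it). CDKN1A, the cell-cycle inhibitor p21, rose from 80.9 ± 2.63 TPM (SD, n = 3) in control to 143 ± 8.07 TPM (SD, n = 3), a log2 difference of 0.81 (standard error 0.068, adjusted p = 0.0444, 0.00347 with the block). TGFBI, a secreted matrix protein, was at 173, 135 and 151 TPM after knockdown and at 124, 99.1 and 106 TPM in control, without overlap (log2 difference 0.47, adjusted p = 0.0894, 0.00437 with the block). SNAI2, a repressor of epithelial genes, was at 0.25 (adjusted p = 0.306, 0.139 with the block) and LTBP2, a matrix protein of the latent TGF-beta binding family, at 0.24 (adjusted p = 0.461, 0.242 with the block). With the GC trend removed and the block, CDKN1A, TGFBI and SNAI2 passed as higher (11.6% of all genes), with SNAI2 at 0.58 (adjusted p = 0.0143). In that fit JUNB went from 0.21 (adjusted p = 0.0301 with the block) to 0.06 (adjusted p = 0.503) and LTBP2 was at 0.16 (adjusted p = 0.415). These genes also answer to other signals, p53 in the case of CDKN1A.

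**Figure D4:**
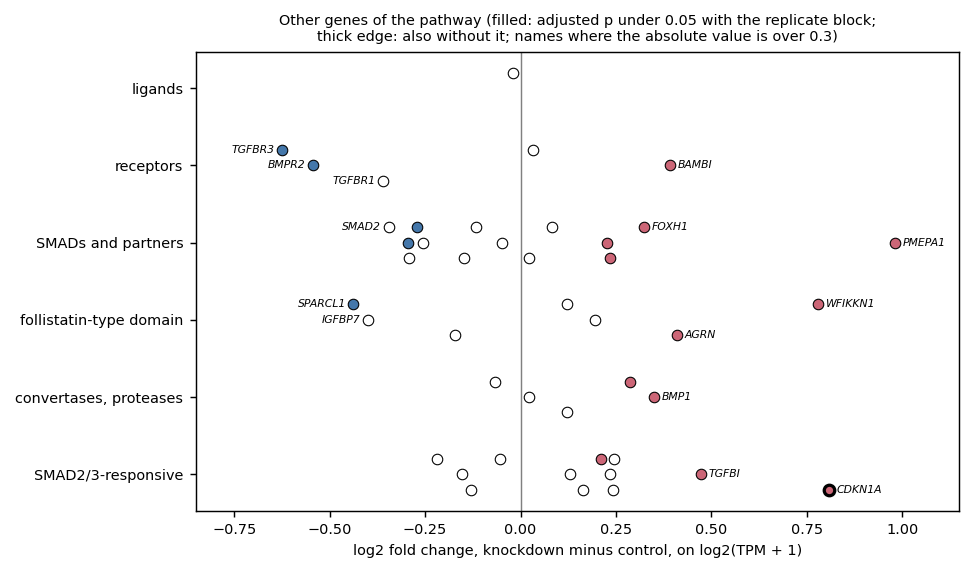
Log2 fold change, knockdown minus control on log2(TPM + 1) (horizontal axis), of the 44 other pathway genes tested, by list (vertical axis). Filled points passed an adjusted p of 0.05 with the replicate block (red higher, blue lower), the thick edge marks CDKN1A, which also passed without it, and PMEPA1 has the highest value at 0.98.

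The genes most like FSTL3 over the 6 libraries, by Pearson's r of log2(TPM + 1) among genes that averaged 10 TPM or more and had a range of at least 1 on that scale (955 genes), were PHLDB1 (r = 0.986), GADD45G (0.983), LINC02747 (0.979), PCED1B (0.973) and KCTD11 (0.964). The 6 points fall into the 2 groups, so these values describe mainly the difference between the groups and have no p. PHLDB1 averaged 30.5 ± 3.13 TPM (SD, n = 3) in knockdown and 16.4 ± 0.138 TPM (SD, n = 3) in control libraries. Among the 5 genes the log2 difference was between 0.82 (PCED1B) and 1.07 (GADD45G), below the 1.70 of FSTL3.

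**Figure D5:**
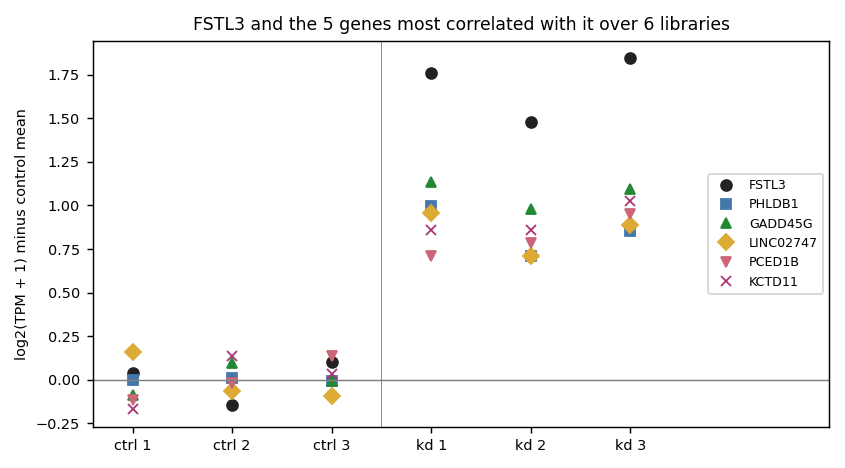
log2(TPM + 1) minus the control mean (vertical axis) of FSTL3 and of the 5 genes most correlated with it, in the 3 control (ctrl) and 3 knockdown (kd) libraries. All 6 genes are higher in the knockdown libraries, FSTL3 by the largest step. FSTL3, PHLDB1, GADD45G and LINC02747 have their lowest knockdown value in replicate 2, PCED1B and KCTD11 in replicate 1.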

How the data were processed

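The authors deposited TPM values per gene, in which each of 6 libraries sums to 1000000. Per the labels, fastp 0.20.1, HISAT2 2.1.0, StringTie 2.0 and hg38 are named in the submitters' processing notes. Counting settings, strand and annotation are not given in the sources used here. The paper names DESeq2, which needs counts, so limma 3.58.1 (R 4.3.3) with a mean-variance trend was run on log2(TPM + 1) over the 13980 genes averaging 1 TPM or more, with Benjamini-Hochberg adjustment over all of them, without and with the replicate number as a block. Fold changes of low genes are understated on this scale.

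Whole reads per gene were found from its TPM ratios between libraries (numba 0.67.0, tolerance 0.002). They are lower bounds, since a factor shared by all libraries cannot be seen, and intervals cover counting error only. Among genes in the lowest quartile of TPM, 99.95% came out whole with up to 200 reads in the lowest library, against 0.0% with shifted library factors. In simulation 98.39% of 18098 genes were recovered exactly.

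The replicate numbers come from the labels, which do not say what they stand for. Deviations from the group means correlated at 0.560, 0.343 and 0.362 over genes in pairs 1, 2 and 3, and the numbers were taken to pair the libraries. Libraries of different numbers were not correlated, so these values cannot show whether 2 belongs with 2 and 3 with 3. The pairing in the fits with the block therefore rests on the labels. In a simulation of this comparison over 13980 genes with a replicate effect of SD 0.3, genes changed by 1.5 on the log2 scale were called in 82% of cases without the block and 99% with it, and 0.552% and 8.72% of calls were false. The GC trend was removed by loess (span 0.5) on GENCODE release 29 transcripts, with a value for 92.7% of the genes tested.

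The members and gene lists were chosen with earlier results of these data known. Genes named from each list are the 4 tested with the largest absolute difference and any called without the block, beside those named because they passed another fit, and for likeness the 5 with the highest correlation. The lists hold 1 gene under both its symbols, CRIPTO and TDGF1, of which the table has TDGF1, so 66 genes were looked at. A result for 1 further gene of the lists is not reported here. Alternatives were another pseudocount, scaling, filter or fold threshold, limma-voom, and leaving out libraries.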

Additional observations from a re-analysis of the deposited data

How the results depend on the processing

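FSTL3 kept its direction under all 15 alternatives, with a log2 fold change between 1.55 and 1.81, as did INHBB (0.11 to 0.45), INHBE (-0.50 to -0.20), ACVR1B (0.23 to 0.37) and ACVR2B (-0.76 to -0.31). The counts at an adjusted p under 0.05 changed more often. Where fewer libraries or another number of genes is not named, the cause was not tested.

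For the pathway lists the count of 1 higher and 0 lower became 12 and 5 with the replicate block (9.94% and 25.0% of all genes). It became 13 and 1 with the GC offset and the replicate block (11.6% and 13.4%). With limma-voom on recovered reads, 47 genes of the lists were tested. There 4 were higher and 1 was lower (1.29% and 1.72% of all genes), and with the replicate block 17 and 6 (17.5% and 20.5%). Upper-quartile scaling gave 2 higher, and no filter on low values (61 genes of the lists tested) gave 0 higher. In the latter, 10 were higher at an unadjusted p under 0.05, where the share of all genes was not counted. An absolute log2 fold change over 1 left 0 higher. With libraries left out there were 0 to 13 higher and 0 to 5 lower. The highest of both came without replicate 1 of both groups (9.68% of all genes higher and 25.3% lower), an alternative chosen after seeing the data. For the fits that gave 0 higher with a library left out, the share of all genes was not counted.

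For the axis the count of 1 higher and 0 lower became 3 and 1 with the replicate block, 2 higher with the GC offset and the replicate block, 1 lower with limma-voom on recovered reads, and 3 and 1 with limma-voom and the replicate block. With libraries left out there were 0 to 2 higher and 0 to 1 lower. The axis was chosen on the FSTL3 difference, so these counts describe the fits and are no test of the axis. The ratio of antagonist to ligand mRNA ranged from 13.03 to 15.3 after knockdown and from 4.57 to 5.24 in control with a library left out. Depth limits FST, INHBA and FSTL1, which had 18 reads or fewer in every library.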
